A study of Homo sapiens with 4 samples.

Results

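LTR13 and LTR14 are names given by repeat annotation to the long terminal repeats (LTRs) of HERV-K type endogenous retroviruses. The members described here are the 7 rows of the deposited LTR table that carry these names, out of 373 subfamilies in all. The LTR13 family has 3 members (LTR13, LTR13_ and LTR13A) and the LTR14 family has 4 (LTR14, LTR14A, LTR14B and LTR14C). They were taken by name, as HERV-K type LTRs with high CpG density. No value of either histone mark entered the rule, but earlier results of these data were known when it was made. The measurements come from native ChIP-seq for H3K9me2 and H3K9me3 in HCT116, an established human colorectal carcinoma line. Cells received 5-aza-CdR at 300 nM or PBS for 24 h and were collected at 5 days. The 4 groups were H3K9me2 with 5-aza-CdR, H3K9me2 with PBS, H3K9me3 with 5-aza-CdR and H3K9me3 with PBS, with 1 library in each. No group has a replicate, so every difference given here compares 2 libraries and has no test and no p-value. The table lists LTRs and no host genes, so the identity of the line was not checked against gene markers.

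An LTR flanks each end of a provirus and holds the viral promoter, enhancer and polyadenylation signal. Most copies in the human genome are solitary LTRs left after recombination between both ends. HERV-K is a superfamily of betaretrovirus-like elements divided into HML groups, named for their likeness to the mouse mammary tumour virus. LTR13 belongs to the HML-4 group. The LTR14 names are shared by LTRs of more than one HML group, and among them are the LTRs of the HERV-K(C4) provirus, which lies in an intron of complement C4 genes. The LTR14 family is therefore a family by name. H3K9me3 is laid down on many endogenous retroviruses by SETDB1, recruited through KRAB zinc finger proteins and TRIM28, and H3K9me2 mainly by G9a and GLP. DNA methylation at CpG sites is another layer of silencing of these elements. The drug 5-aza-CdR, a cytosine analogue, traps DNA methyltransferases and lowers CpG methylation.

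Each value is the authors' z-score, a standardised score per subfamily and library with no unit. The labels and headers name neither the population behind the centring and scaling nor the sequencing depth. A negative z-score therefore does not mean that a mark was absent. To place a member among the 373 subfamilies, its distance from the median of all was divided by the robust SD, a scaled median absolute deviation. A member was counted as beyond the limit when this distance exceeded 2 robust SDs. Ranks are counted from the lowest value of the 373. Subfamilies in the table are related by descent and are not replicates of a condition. Between the LTR13 and LTR14 families the comparison is likewise a description of these libraries.

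The members are CpG-rich, and high CpG density was part of the choice, so their densities describe the choice and are no result. The median deposited CpG density was 0.0218 in the LTR13 family and 0.0145 in the LTR14 family, against 0.00734 over all 373 subfamilies. The header does not state the denominator of this density. LTR13_ had 0.0237, LTR13 had 0.0218 and LTR13A had 0.0215, which placed them 9th, 11th and 13th from the highest density. LTR14 had 0.0155, LTR14C had 0.0151, LTR14A had 0.0139 and LTR14B had 0.0122, at places 31, 35, 48 and 68. The density ranges of the LTR13 and LTR14 families thus did not overlap, and all 7 members lay in the high-CpG group, the 125 subfamilies with the highest density when the table is split into 3 groups.

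In the H3K9me2 libraries, the LTR13 family lay close to the bottom of the table in both treatments. LTR13A had a z-score of -0.107 in 5-aza-CdR and -0.835 in PBS. LTR13 had -0.209 in 5-aza-CdR and -0.817 in PBS. LTR13_ had -0.452 in 5-aza-CdR and -0.802 in PBS. In PBS the 3 values lay within 0.0323 of each other, at ranks 8, 11 and 13, and only 3 of the 366 subfamilies outside the 7 had a value between them. In 5-aza-CdR they were spread over 0.345, from rank 6 for LTR13_ through rank 23 for LTR13 to rank 38 for LTR13A. LTR13A was thus the lowest of the family in PBS and the highest in 5-aza-CdR, and LTR13_ the reverse, although in PBS this order rests on very small gaps.

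The LTR14 family was less uniform for H3K9me2. LTR14B had a z-score of 0.140 in 5-aza-CdR and -0.522 in PBS. LTR14A had -0.00609 in 5-aza-CdR and -0.542 in PBS. LTR14 had -0.157 in 5-aza-CdR and -0.635 in PBS. LTR14C was the lowest, with -0.337 in 5-aza-CdR and -0.755 in PBS, at ranks 12 and 18. LTR14A and LTR14B lay at ranks 70 and 103 in 5-aza-CdR and at ranks 90 and 100 in PBS. The order of the 4 members was the same in both H3K9me2 libraries.

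Beyond the limit for low H3K9me2 levels were 3 of the 7 members in 5-aza-CdR (LTR13, LTR13_ and LTR14C), where 7.24% of all subfamilies lay below the limit. In PBS they were the 3 LTR13 members, where 4.02% of all subfamilies lay below it. Low H3K9me2 went with high CpG density across the table, and in the high-CpG group 26 of 125 subfamilies lay below the limit in 5-aza-CdR and 13 of 125 in PBS. Above the limit were 0 of 7 members in either library, against 1.07% of all subfamilies in each.

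**Figure D1:**
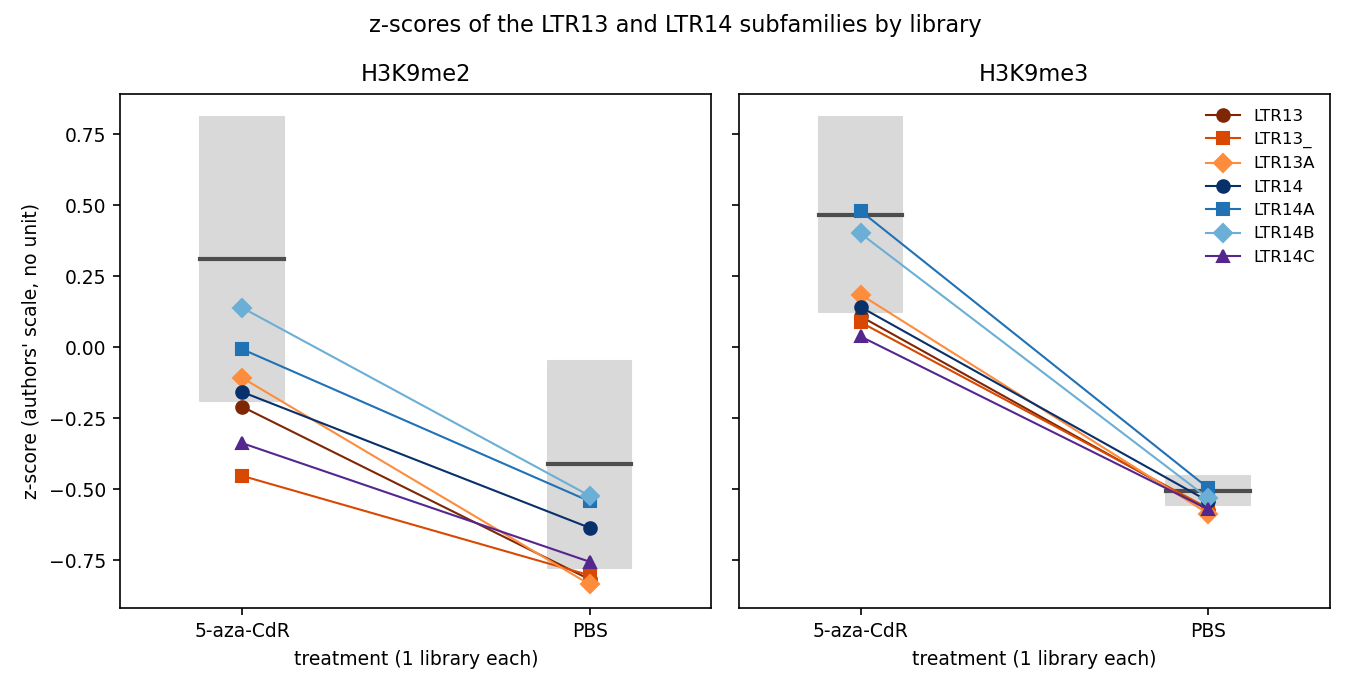
z-scores of H3K9me2 (left panel) and H3K9me3 (right panel) for the 7 members in the 5-aza-CdR and PBS libraries, 1 library per point, with the grey bars showing the median of all 373 subfamilies and 2 robust SDs on each side. The 3 LTR13 members lie together below the bar for H3K9me2 in PBS and spread from -0.452 to -0.107 in 5-aza-CdR, and LTR14A and LTR14B lie highest of the 7 for H3K9me3 in 5-aza-CdR.

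For H3K9me3 the LTR13 members again lay low and close together. LTR13A had a z-score of 0.186 in 5-aza-CdR and -0.585 in PBS. LTR13 had 0.110 in 5-aza-CdR and -0.572 in PBS. LTR13_ had 0.0888 in 5-aza-CdR and -0.566 in PBS. The family spanned 0.0976 in 5-aza-CdR and 0.0188 in PBS, which is 0.569 and 0.742 robust SDs of these libraries. LTR13A was again the highest of the 3 in 5-aza-CdR and the lowest in PBS. Their ranks were 16 to 37 in 5-aza-CdR and 8 to 16 in PBS.

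The LTR14 family split into pairs for H3K9me3 in 5-aza-CdR. LTR14A had a z-score of 0.481 in 5-aza-CdR and -0.495 in PBS, and LTR14B had 0.401 in 5-aza-CdR and -0.531 in PBS. LTR14 had 0.142 in 5-aza-CdR and -0.541 in PBS, and LTR14C had 0.0388 in 5-aza-CdR and -0.570 in PBS. LTR14A, at rank 201 in 5-aza-CdR and rank 245 in PBS, was the one member above the median of all subfamilies in either H3K9me3 library. LTR14C, at ranks 12 and 14, was in the lowest stretch of the table for this mark as for H3K9me2. The gap of 0.259 between LTR14B and LTR14 in the 5-aza-CdR library was wider than the whole LTR13 family. Below the limit for H3K9me3 levels were LTR13, LTR13_ and LTR14C in 5-aza-CdR, where 5.36% of all subfamilies lay. In PBS they were the same 3 with LTR13A, where 5.63% of all subfamilies lay. In the high-CpG group 19 of 125 subfamilies lay below the limit in 5-aza-CdR and 19 of 125 in PBS.

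Set against each other, the LTR13 family had lower levels than the LTR14 family in all 4 libraries, and the 2 families were separate only for H3K9me2 in PBS. There the LTR13 median was -0.817 (range -0.835 to -0.802) and the LTR14 median -0.588 (range -0.755 to -0.522), and each LTR13 member was below each LTR14 member. For H3K9me2 in 5-aza-CdR the medians were -0.209 in LTR13 and -0.0814 in LTR14, with LTR13 the higher in 3 of the 12 pairs of members. For H3K9me3 the medians were 0.110 in LTR13 and 0.272 in LTR14 in 5-aza-CdR, and -0.572 in LTR13 and -0.536 in LTR14 in PBS. In these 3 libraries the ranges overlapped, through LTR14C in each and also through LTR14 for H3K9me2 and H3K9me3 in 5-aza-CdR. The LTR13 levels were also the lower in all 4 libraries with each library set to SD 1 and as percentile ranks. Neither scale reorders the subfamilies within a library, so this was fixed in advance or nearly so and is no further support. The families also differ in CpG density without overlap, so family and density cannot be told apart.

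The question of the treatment was how each mark differed between 5-aza-CdR and PBS at these LTRs. Over all subfamilies the 5-aza-CdR library had the higher z-score nearly throughout, with a median difference of 0.702 for H3K9me2 and 0.973 for H3K9me3. All 7 members had a higher z-score in 5-aza-CdR for both marks. Since the scale of the z-score is not known, the distance of a member's difference from those medians is more readable than its sign.

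For H3K9me2 the members had differences of 0.728 at LTR13A, 0.662 at LTR14B, 0.608 at LTR13, 0.536 at LTR14A, 0.478 at LTR14, 0.418 at LTR14C and 0.350 at LTR13_. LTR13A was the one member above the median of all subfamilies, at rank 217, and LTR13_, at rank 10, had one of the smallest differences in the table. On the deposited scale both ends of the order were therefore LTR13 members, and 201 of the 366 other subfamilies fell between them. The low end depended on the scale. With SD 1 LTR13_ was still the lowest of the 7 but at rank 62. On percentile ranks it was at rank 178, and LTR14A was the lowest of the 7. Below the limit of 0.452 were LTR13_ and LTR14C, 2 of 7 members, where 8.04% of all subfamilies and 29 of the 125 in the high-CpG group lay. Above the limit were 0 of 7 members, against 2.95% of all subfamilies.

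For H3K9me3 the differences were 0.976 at LTR14A, 0.932 at LTR14B, 0.771 at LTR13A, 0.684 at LTR14, 0.682 at LTR13, 0.655 at LTR13_ and 0.608 at LTR14C. LTR14A was at the median of the table and LTR14C at rank 14. Below the limit of 0.687 were LTR14, LTR13, LTR13_ and LTR14C, 4 of 7 members, where 7.24% of all subfamilies and 25 of the 125 in the high-CpG group lay. LTR14 was below the limit by 0.00378 and LTR13 by 0.00567, while LTR13A, the next member, was above it, and with a limit of 2 ordinary SDs 0 of 7 members were beyond it. Above the limit were 0 of 7 members, against 1.88% of all subfamilies.

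**Figure D2:**
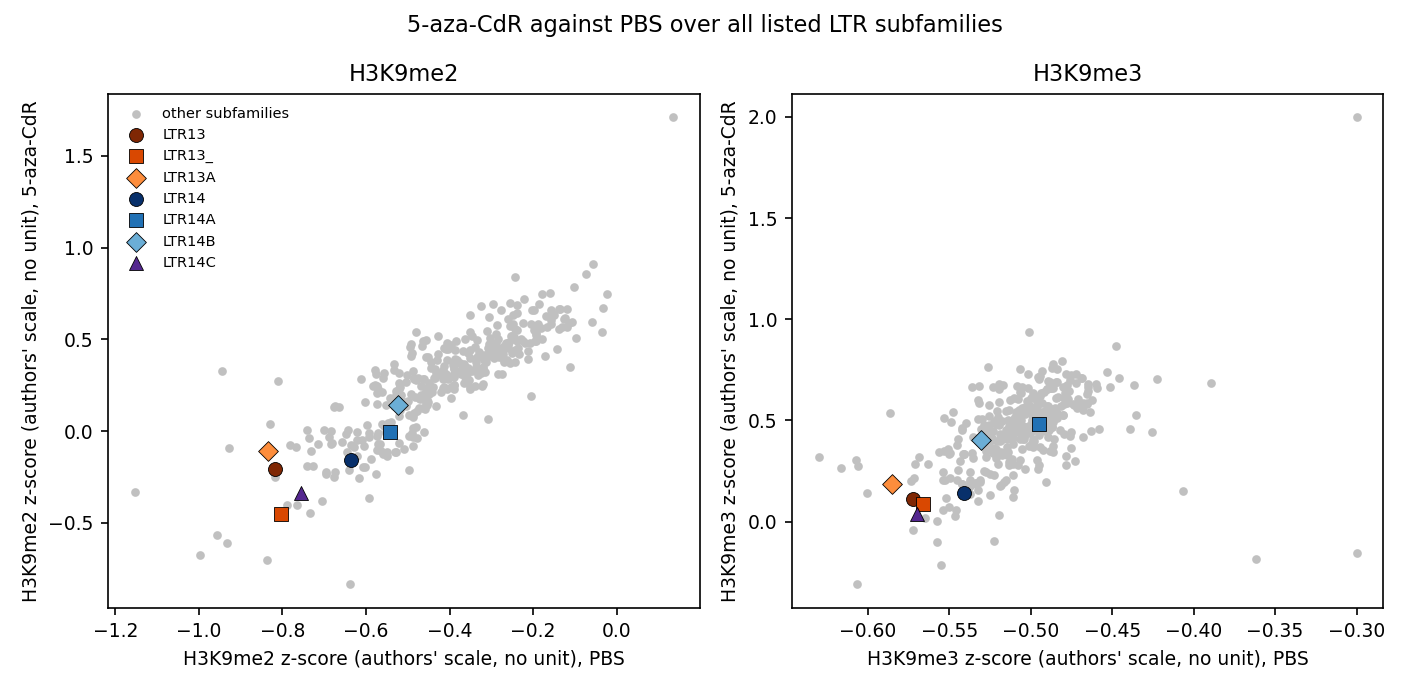
z-score in 5-aza-CdR (vertical axis) against z-score in PBS (horizontal axis) for H3K9me2 (left) and H3K9me3 (right), with 1 point per subfamily and the 7 members in colour. For H3K9me2 the LTR13 members share a PBS value near -0.8 and differ along the vertical axis, and for H3K9me3 LTR14A and LTR14B lie inside the main cloud while the other 5 members lie at its lower left.

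The families changed places between the marks on the deposited scale. The H3K9me2 difference had a median of 0.608 in LTR13 and 0.507 in LTR14, while the H3K9me3 difference had a median of 0.682 in LTR13 and 0.808 in LTR14. The ranges overlapped for both, with LTR13 the higher in 7 of 12 pairs for H3K9me2 and in 4 of 12 for H3K9me3. The higher LTR13 median for H3K9me2 was also found with SD 1 in each library and on percentile ranks, but the lower LTR13 median for H3K9me3 turned round on both: the LTR13 median minus the LTR14 median was -0.126 as deposited, 0.395 with SD 1 and 5.76 percentile points on ranks. LTR13A had the largest H3K9me2 difference of the 7 on all 3 scales.

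The position of the members relative to the rest of the table depended on the scale in the same way. The distance of the median LTR13 difference from the median of all subfamilies was -0.75 robust SDs for H3K9me2 as deposited, 1.24 with SD 1 and 0.382 on ranks. For H3K9me3 it was -2.04 as deposited, 0.263 with SD 1 and 0.138 on ranks. Against the high-CpG group alone, on the deposited scale, it was 0.127 for H3K9me2 and -0.948 for H3K9me3. The LTR14 median lay below the median of all subfamilies on each scale, with distances of -1.56, -0.591 and -0.157 robust SDs for H3K9me2 and of -1.15, -0.328 and -0.158 for H3K9me3. With SD 1, LTR13A was beyond the limit on the high side for H3K9me2, at 2.29 robust SDs, and 0 of 7 members were below the limit for either mark. The spread over subfamilies is wider in 5-aza-CdR than in PBS for both marks, with SDs of 0.290 in 5-aza-CdR and 0.187 in PBS for H3K9me2 and of 0.206 in 5-aza-CdR and 0.0354 in PBS for H3K9me3, which is what the SD 1 scale removes.

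**Figure D3:**
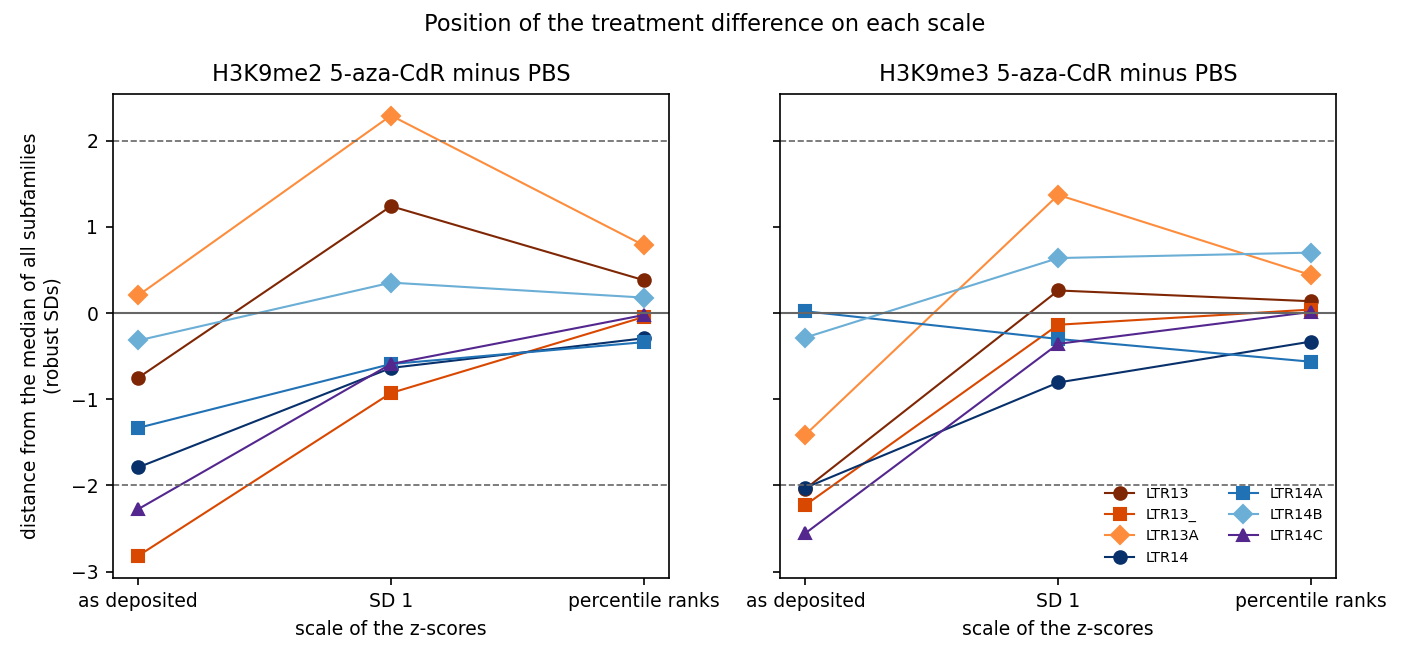
Distance of each member's treatment difference from the median of all subfamilies, in robust SDs, for H3K9me2 (left) and H3K9me3 (right) on 3 scales of the z-scores, with dashed lines at 2 robust SDs. As deposited, LTR13_ and LTR14C lie below the lower line for both marks, and on the other scales no member does. On percentile ranks, members low in PBS could not reach that line.

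Comparing the marks with each other on the deposited scale, H3K9me3 had the higher z-score than H3K9me2 at all 7 members in 5-aza-CdR. In PBS it did at 6 of 7, where LTR14B was the exception at -0.00825. Over all 373 subfamilies the same held for 353 in 5-aza-CdR and for 103 in PBS. In PBS the value of H3K9me3 minus H3K9me2 was 0.250 at LTR13A, 0.245 at LTR13 and 0.236 at LTR13_, all 3 above the limit, where 3.49% of all subfamilies lay. The LTR14 members ranged from -0.00825 at LTR14B to 0.185 at LTR14C and did not overlap with LTR13. In 5-aza-CdR the same value was highest at LTR13_ (0.541) and LTR14A (0.487), both above the limit, where 8.58% of all subfamilies lay. It was from 0.261 to 0.376 at the other 5 members. In the high-CpG group 23 of 125 subfamilies lay above the limit in 5-aza-CdR and 11 of 125 in PBS. H3K9me3 varied little between subfamilies in PBS, so that the PBS values follow mainly the H3K9me2 level.

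On the deposited scale, the H3K9me3 difference between treatments exceeded the H3K9me2 difference at all 7 members and at 367 of all 373 subfamilies. The excess was smallest at LTR13A (0.0437) and LTR13 (0.0733) and largest at LTR14A (0.440) and LTR13_ (0.305), against a median of 0.267 over all subfamilies. LTR13A, at rank 14, was the one member below the limit for this excess. Below it lay 4.29% of all subfamilies and 12 of the 125 in the high-CpG group. The excess depended on the scale. With SD 1 the H3K9me3 difference was the smaller at LTR13 (0.204 against 0.468) and LTR14 (-0.509 against -0.327). It was the larger at the other members. On percentile ranks it was the smaller at LTR13, LTR13A, LTR14 and LTR14A (-11.8 against -5.36 at LTR14A), and the larger at the others.

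Low levels at CpG-rich LTRs are the general pattern of the table, so each member was also set against a least-squares line of z-score on CpG density fitted over all 373 subfamilies. For H3K9me2, 7 of 7 members lay below the line in 5-aza-CdR and 7 of 7 in PBS, where 49.9% and 50.9% of all subfamilies and 70.4% and 69.6% of the high-CpG group did. For H3K9me3, 5 of 7 members lay below it in 5-aza-CdR and 6 of 7 in PBS, where 48.0% and 50.1% of all subfamilies and 67.2% and 62.4% of the high-CpG group did. Most of the high-CpG group thus lies below a straight line, and on log2 of the density the counts for H3K9me2 were 4 of 7 in 5-aza-CdR and 5 of 7 in PBS, against 48% and 49.6% of the high-CpG group. For H3K9me3 they were 4 of 7 in 5-aza-CdR and 6 of 7 in PBS, against 51.2% and 56.8% of that group.

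The distance from the CpG line separated the members. LTR14C lay furthest below the straight line in each library, at -2.02 residual SDs for H3K9me2 in 5-aza-CdR and -1.57 in PBS, and at -1.79 for H3K9me3 in 5-aza-CdR and -1.54 in PBS. LTR13A was at -0.0304 residual SDs for H3K9me2 in 5-aza-CdR and at -1.33 in PBS, near the line in the one library and well below it in the other. For H3K9me3 it was at -0.322 in 5-aza-CdR and -1.48 in PBS. LTR14B lay between -0.537 and 0.00658 residual SDs in the 4 libraries. LTR14A lay above the line for H3K9me3, at 0.632 in 5-aza-CdR and 0.784 in PBS, and below it for H3K9me2, at -0.639 in 5-aza-CdR and -0.259 in PBS. On log2 of the density LTR14C was the furthest below in 3 of the 4 libraries, while for H3K9me3 in PBS it was at -1.25 and LTR13A at -1.27. On this line LTR13 moved above the line for H3K9me2 in 5-aza-CdR, LTR13A moved above the line for both marks in 5-aza-CdR, LTR14A for H3K9me2 in PBS and LTR14B for H3K9me2 in both libraries. By family, the median distance from the straight line for H3K9me2 in 5-aza-CdR was -0.459 in LTR13 and -0.878 in LTR14. In PBS it was -1.17 and -0.519. For H3K9me3 it was -0.670 and -0.575 in 5-aza-CdR, and -1.03 and -0.559 in PBS. The LTR13 family was thus the higher for H3K9me2 in 5-aza-CdR and the lower in the other libraries, as also on log2 of the density.

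**Figure D4:**
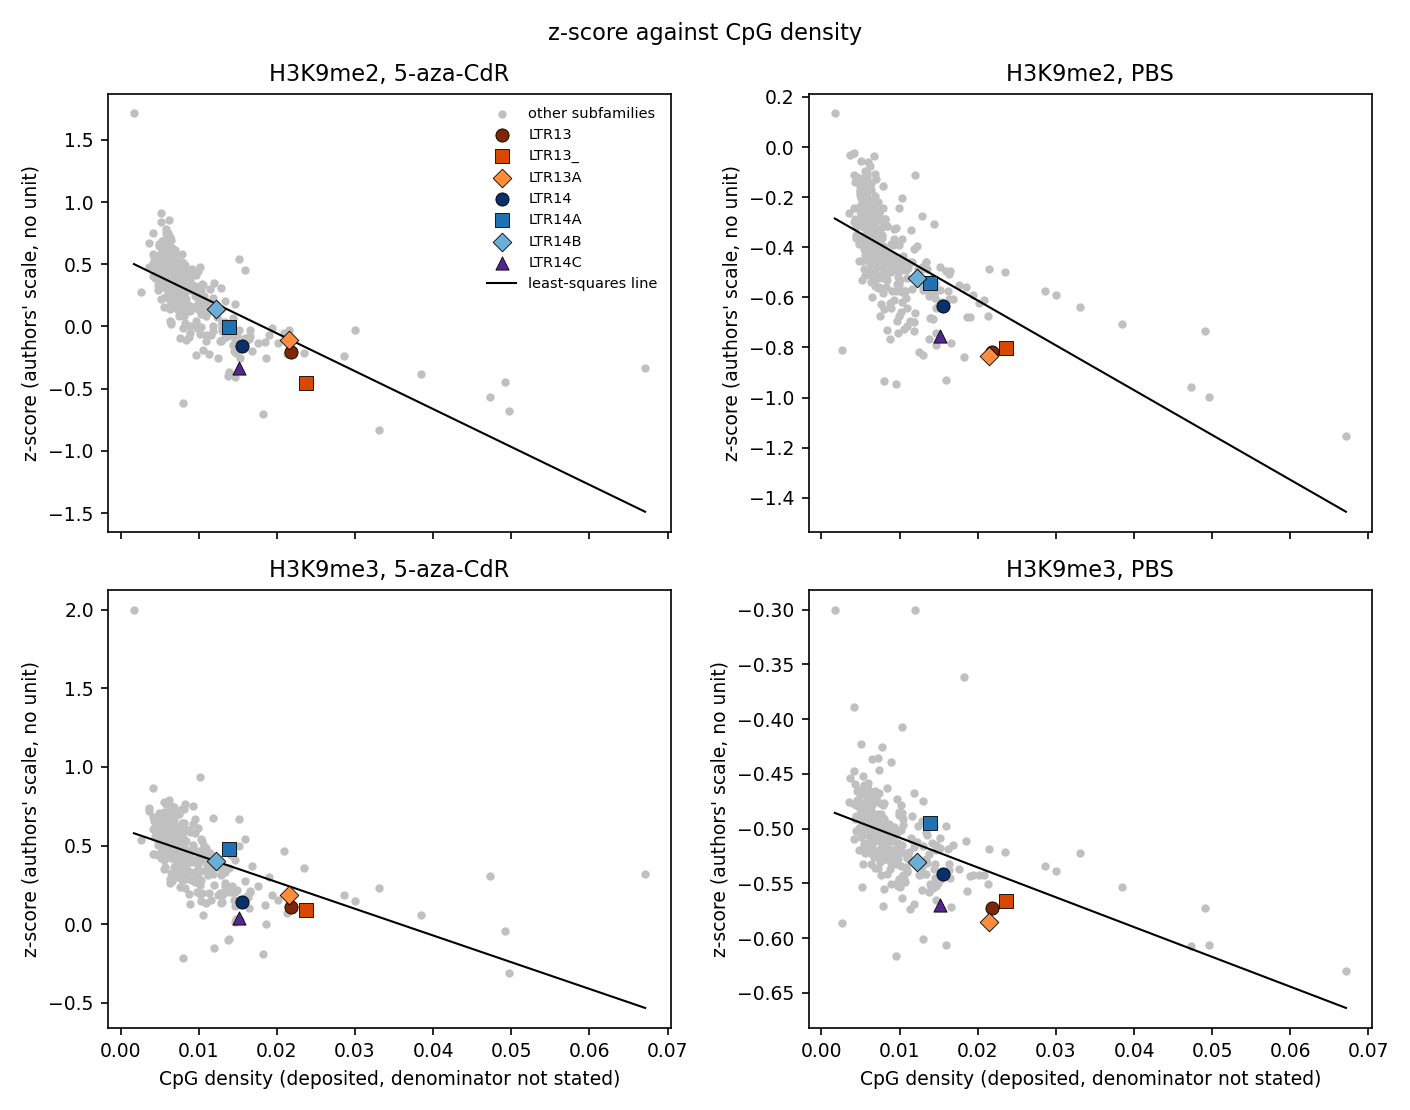
z-score (vertical axis) against deposited CpG density (horizontal axis) in the 4 libraries, with 1 point per subfamily, the 7 members in colour and the least-squares line over all 373 subfamilies. The LTR13 members lie to the right of the LTR14 members at densities from 0.0215 to 0.0237, and LTR14C lies below the line in all 4 panels.

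Other HERV-K type LTRs in the table were 8 of the LTR5 and MER11 names, 8 of the LTR3 and LTR22 names and 4 of the MER9 names, 20 in all. Their CpG densities reached at most 0.0163, 0.0166 and 0.0152 in these lists, against 0.0215 to 0.0237 in LTR13. All 20 were thus less CpG-dense than each LTR13 member, so being LTR13 and having a higher density cannot be told apart here. For H3K9me2 in PBS, 0 of these 20 had a lower z-score than LTR13A, and 1, LTR3B, had a lower one than LTR13 and LTR13_. For H3K9me3 in PBS, 0 of 20 were below LTR13A or LTR13, and 2, LTR3 and LTR3A, were below LTR13_. For H3K9me2 in 5-aza-CdR, 0 of 20 were below LTR13_, 2 below LTR13 and 3 below LTR13A. For H3K9me3 in 5-aza-CdR, 3 of 20 were below LTR13_, 3 below LTR13 and 6 below LTR13A. LTR14A was at the other end for H3K9me3, with 18 of the 20 below it in 5-aza-CdR and 17 in PBS.

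The treatment differences of the members were set beside those of the same lists. For H3K9me2 the median difference was 0.608 in LTR13 and 0.507 in LTR14, against 0.514 in LTR5 and MER11, 0.589 in LTR3 and LTR22 and 0.525 in MER9. On the deposited scale, LTR13A had a larger H3K9me2 difference than 19 of the 20 and LTR13_ a smaller one than all 20. For H3K9me3 the medians were 0.682 in LTR13 and 0.808 in LTR14, against 0.743 in LTR5 and MER11, 0.829 in LTR3 and LTR22 and 0.928 in MER9. LTR5, LTR22 and LTR22B were the 3 of 20 with a smaller H3K9me3 difference than LTR14C, and the H3K9me3 value of LTR5 in PBS is a round number in the table. No test of these differences between lists was possible, and the LTR13 members are more CpG-dense than all 20.

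**Figure D5:**
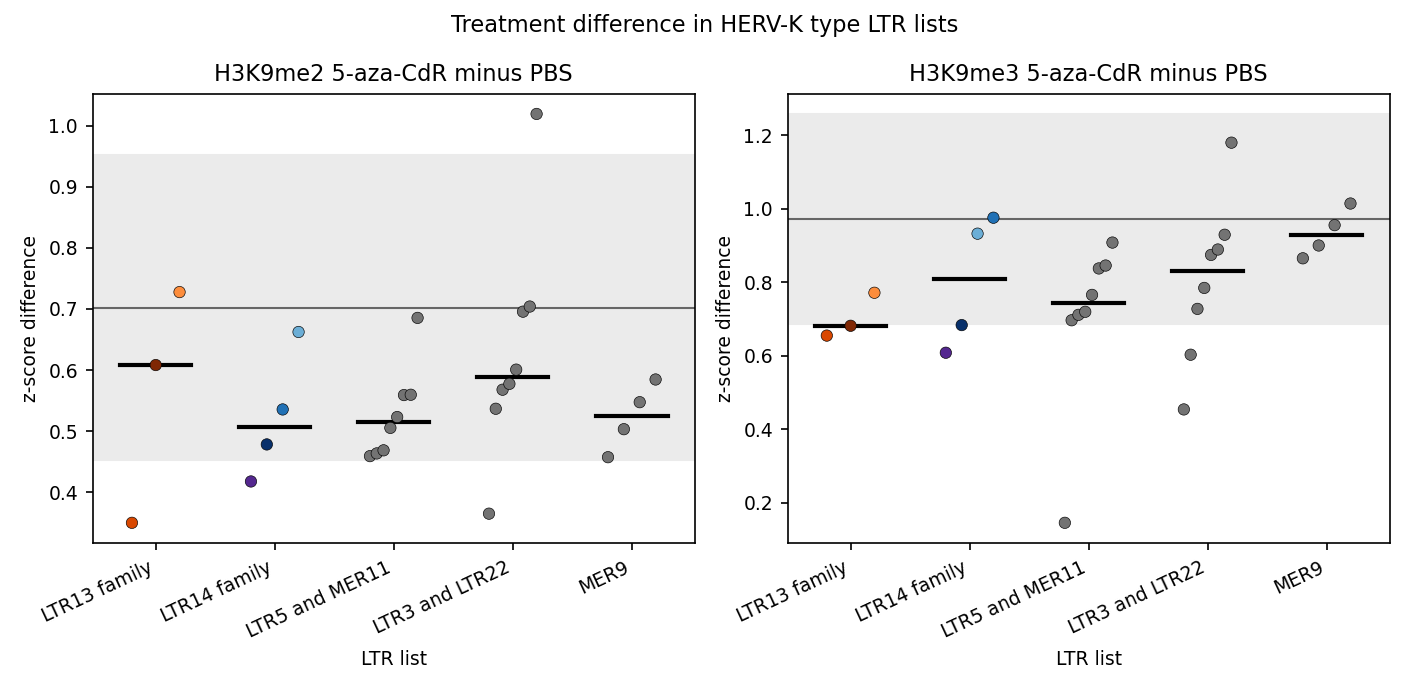
Difference of z-score, 5-aza-CdR minus PBS, for H3K9me2 (left) and H3K9me3 (right) in the LTR13 and LTR14 families and 3 other HERV-K type LTR lists, with 1 point per subfamily, short black lines at list medians, and the median of all 373 subfamilies with 2 robust SDs on each side in grey. For H3K9me2 the LTR13 points run from 0.350 to 0.728, and for H3K9me3 the LTR14 points fall into a pair at 0.608 and 0.684 and a pair at 0.932 and 0.976.

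Likeness of pattern was measured as the Euclidean distance over the 4 libraries, each set to SD 1, among the 366 subfamilies outside the 7. The nearest to LTR14 was LTR2, at a distance of 0.116, with z-scores of -0.134 in 5-aza-CdR and -0.622 in PBS for H3K9me2 and of 0.151 in 5-aza-CdR and -0.542 in PBS for H3K9me3. LTR12B was the nearest to both LTR13_ (0.397) and LTR14C (0.339), LTR3A to LTR13A (0.494), LTR10D to LTR13 (0.693), LTR10C to LTR14A (0.486) and LTR28 to LTR14B (0.295). Of these, LTR3A is also a HERV-K type LTR. LTR13 and LTR13A had each other as the nearest member, at 0.637, while LTR13_ and LTR14C were each nearest to the other, at 0.539. For LTR14A and LTR14B, each the nearest member to the other at 1.2, 54 and 90 subfamilies of other names were nearer still. By this measure LTR13_ and LTR14C paired across the family names.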

How the data were processed

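Native ChIP-seq of H3K9me2 and H3K9me3 was carried out in HCT116 cells, with 1 library for each mark and treatment. The submitters' processing notes name Bowtie2 and hg19. Per the file headers, the values the authors computed and deposited are a z-score, which is a normalised score, and a CpG density, a ratio with no stated denominator, for each of 373 LTR subfamilies. The centring of the score, the use of an input and the treatment of reads that map to many copies are left unstated by the sources used here. Read depth is unknown, so no counting interval was computed. Whether read mapping bears on the levels of repeats was not tested.

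Differences, ranks, robust SDs (median absolute deviation times 1.4826), least-squares lines on CpG density and distances were computed over all 373 subfamilies with Python 3.11.15, pandas 2.3.3 and numpy 2.4.6, and checked on simulated data. All 7 members were named, with the nearest subfamily outside the 7 for each and the other HERV-K lists. The members, lists, limit and alternatives were chosen with earlier results of these data known. No genomic copies or sequences of these LTRs were analysed here.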

Additional observations from a re-analysis of the deposited data

How the results depend on the processing

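With 1 library per group, a position, level or family difference was taken to move at a shift of 1 robust SD or more. For a distance from the CpG line the shift was 1 residual SD or more. A count was taken to move when it changed beyond a set ratio, or to or from 0. Leaving out LTR5 and LTR11, whose H3K9me3 values are partly round numbers, moved none of the 82 results recomputed without them. Neither is a member, and medians and robust SDs over 373 subfamilies could hardly move without them. No paired analysis was possible because each group held 1 library. The position of the LTR13 median difference moved, for H3K9me2, to 1.24 robust SDs with SD 1 in each library and to 0.382 on percentile ranks, and its H3K9me3 position, -2.04 as deposited, changed side to 0.263 and 0.138. Of single members, the H3K9me3 positions of LTR13, LTR13A (-1.41 as deposited, 1.37 with SD 1 and 0.440 on ranks), LTR14A (0.0210, -0.300 and -0.564) and LTR14B (-0.283, 0.639 and 0.702) changed side on both scales, and on ranks those of LTR13_ (0.0413) and LTR14C (0.0138) did. The H3K9me2 positions of LTR13 and LTR14B also changed side on both. That of LTR13_ moved from -2.82 as deposited to -0.927 with SD 1 and -0.0450 on ranks. The LTR14 median moved to -0.157 for H3K9me2 on ranks. With the high-CpG group as background, the LTR13 H3K9me2 difference (-0.75 against all subfamilies) changed side to 0.127, the LTR13 H3K9me3 difference moved to -0.948 and the LTR14 H3K9me2 difference to -0.400. On that background the H3K9me2 level in 5-aza-CdR moved to -0.747 for LTR13 and -0.276 for LTR14, and the H3K9me3 level in PBS to -1.56 and -0.197. LTR13 minus LTR14 moved for the H3K9me3 level in PBS on ranks (-0.388), for the H3K9me2 difference with SD 1 (1.83) and for the H3K9me3 difference with SD 1 (0.591) and on ranks (0.296). It moved by less than 1 robust SD without LTR14C, without LTR13_ and with family means. The count of members below the limit was 0 for both marks with SD 1, on ranks and at 3 robust SDs. With 2 ordinary SDs it was 1 for H3K9me2 and 0 for H3K9me3, and with SD 1 the count above the limit for H3K9me2 was 1. On ranks a difference cannot fall by more than the member's PBS percentile. The LTR13 median stood at percentile 2.82 in PBS for both marks. Members that low in PBS could not reach the lower limit, so for them the 0 on ranks was fixed in advance.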
